A study of Mus musculus with 10 samples.

Results

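The 10 genes described here regulate the making of skeletal muscle. Myod1, Myog, Myf5 and Myf6 are the myogenic regulatory factors, and Pax3 and Pax7 are paired-box factors of muscle progenitors. Msc and Tcf21 are repressor proteins that act within the pharyngeal muscle lineage, and Lbx1 and Met are genes of migrating muscle precursors. All 10 were taken by gene symbol from the array's annotation, which held 19938 genes, and each was read by 1 probe set. The arrays measured RNA of mouse embryos at embryonic day 12.5, from periotic tissue, meaning the otic vesicle, the epithelial sac of the future inner ear, with the mesenchyme dissected along with it. In the 5 mutants Tbx1, a T-box transcription factor, was conditionally knocked out by T-Cre, a recombinase driven in the early mesoderm, and the 5 controls were T-Cre conditional heterozygotes for Tbx1. Both groups thus carried T-Cre and a conditional loss of Tbx1, and no wild-type embryos were analysed here. Each array is 1 embryo, with the tissue of both its sides pooled. The labels name no strain.

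Skeletal muscle forms when progenitors switch on the myogenic regulatory factors, basic helix-loop-helix proteins that bind E-box sequences in muscle genes. In the trunk Pax3 acts upstream of these factors, whereas the muscles of the head arise from pharyngeal and other cranial mesoderm, where Pax3 is not used and Tbx1, Msc and Tcf21 act upstream instead. Several of the genes are also expressed outside muscle: Pax3 and Pax7 mark the dorsal neural tube and neural crest, Lbx1 marks dorsal interneurons, and Met is expressed in epithelia.

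Myog is a classical direct target of the myogenic factors, and its proximal promoter shows the kinds of sites through which it is switched on, so it is printed here beside that of Myf5. RefSeq sequence of build GRCm38.p6 was given for 5 of the 10 genes (Myog, Myf5, Pax7, Tcf21 and Met). The 250 bases before the RefSeq transcript start that the table uses for Myog (chr1:134289754-134290003, plus strand) and of Myf5 (chr10:107486135-107486384, minus strand) read 5′ to 3′ as follows, with capitals for matches to an E-box (CANNTG), a MEF3 site (TCAGGTT) or a loose form of a MEF2 site (CTANNNNTA), searched on both strands. For Myf5, as for Met and Pax7, the gene's listed span begins farther upstream, so that the window precedes the start of 1 transcript and not of the whole gene.
Myog: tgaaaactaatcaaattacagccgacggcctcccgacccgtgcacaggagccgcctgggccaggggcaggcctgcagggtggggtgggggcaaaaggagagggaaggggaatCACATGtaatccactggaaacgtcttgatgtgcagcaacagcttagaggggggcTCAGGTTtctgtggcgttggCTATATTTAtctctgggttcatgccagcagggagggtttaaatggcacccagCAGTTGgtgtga
Myf5: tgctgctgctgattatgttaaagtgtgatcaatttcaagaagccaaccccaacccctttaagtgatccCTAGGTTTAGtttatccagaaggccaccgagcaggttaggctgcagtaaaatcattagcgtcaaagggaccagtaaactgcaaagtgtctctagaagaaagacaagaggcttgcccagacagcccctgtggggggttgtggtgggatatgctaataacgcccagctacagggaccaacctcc
The Myog promoter held 2 E-boxes, CACATG beginning 138 bases and CAGTTG beginning 12 bases before the transcript start, with the MEF3 match 84 bases and the MEF2 match 64 bases before it. The Myf5 promoter held no E-box and no MEF3 match, and 2 overlapping matches to the loose MEF2 form. Met held 1 E-box, and Pax7 and Tcf21 held none of the 3 motifs. Among 32851 mouse promoter windows of that length, 66.2% held an E-box, 3.49% the MEF3 letters and 19.0% the loose MEF2 letters. A match is a description of the letters and not a measured site.

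All 10 genes read above background on all 10 arrays. Background was taken from 3 Y-linked genes in the 7 female embryos, which read up to 4.36 on the log2 scale. At least 15641 of the 19938 genes also read above it on all arrays, so this does not set the 10 apart. Myf6 had the lowest signal of the 10, at 4.96 to 5.60, under the array medians of 6.19 to 6.27. Tbx1, the targeted gene, averaged 7.83 ± 0.36 in mutants and 8.71 ± 0.31 in controls (SD, n = 5 each), a log2 difference of -0.88 with an exact permutation p of 0.0159 and a limma adjusted p of 0.452. Whether the probe set reads the deleted part of Tbx1 is not stated in the labels. The immediate early gene Fos read 5.49 to 5.91 on the arrays numbered 4 and 5 and 8.82 to 9.08 on those numbered 1 to 3, in mutants and controls alike. The labels do not say what the numbers mark, and differences within each set of numbers are given where they matter.

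None of the 10 genes passed the limma threshold, an adjusted p of 0.05 over all probe sets with 1 gene symbol. Over all genes 2 passed, or 0.0100%, both higher in the mutants. At an unadjusted p under 0.05 stood 4 of the 10 (Msc, Myod1 and Myog lower and Pax3 higher in the mutants), where 7.82% of all genes did, 4.70% higher and 3.11% lower. These genes were chosen with earlier results of the same arrays known, so the count is a description. Log2 differences were negative for 6 of the 10 and positive for 4, with a median of -0.12, against -0.0021 over all genes. Of all 19938 genes 9794 were higher and 10144 lower, the share beside which the sign counts of the lists below stand. The groups overlapped for all 10, whereas 1.83% of all genes had groups that did not overlap.

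**Figure D1:**
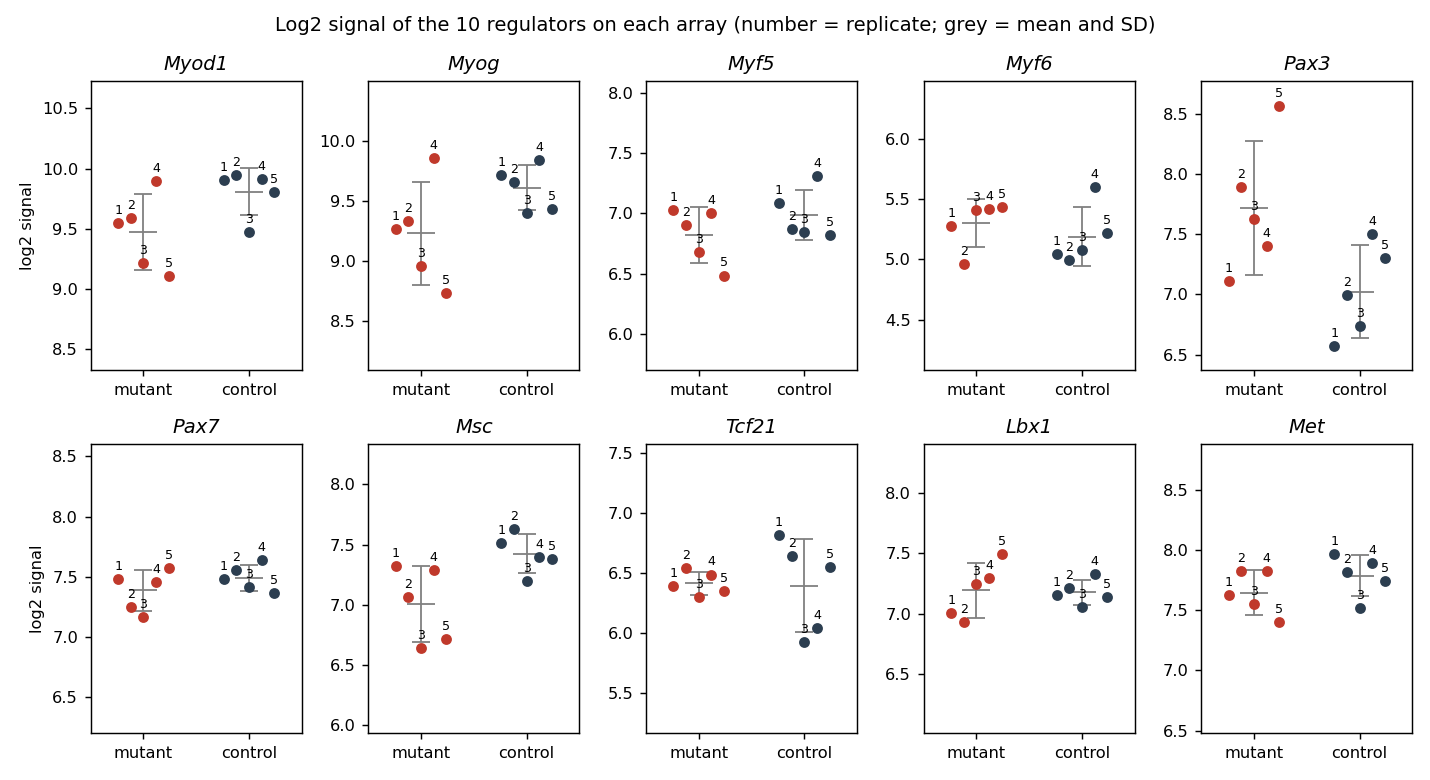
Log2 signal (vertical axis, each panel spanning the same range) of the 10 regulators on each array, mutants left and controls right, with the replicate number above each point and the mean and SD in grey. Mutant 5 is the lowest mutant for Myod1 (9.11) and Myog (8.73) and the highest for Pax3 (8.57), and the groups overlap in every panel.

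Myod1, the factor that commits cells to the muscle fate, read 9.55, 9.59, 9.21, 9.89 and 9.11 in mutants 1 to 5, against 9.90, 9.94, 9.47, 9.91 and 9.81 in controls 1 to 5. Mutants 3 and 5 lay below the lowest control, and mutant 4 lay within the range of the controls. In all 5 pairs of the same number the mutant read lower than the control. This put Myod1 at a log2 difference of -0.34 (95% interval -0.63 to -0.04), or 79.2% of the control signal, with a limma adjusted p of 0.586 and an exact permutation p of 0.103.

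Myog, myogenin, which drives the differentiation of myoblasts into fibres, read 9.27, 9.34, 8.96, 9.86 and 8.73 in the mutants and 9.72, 9.65, 9.40, 9.84 and 9.43 in the controls. Of the 5 mutants 4 lay below the lowest control, while mutant 4 was the highest of all 10 arrays. The log2 difference of Myog was -0.38 (interval -0.75 to -0.01), with an exact permutation p of 0.119 and a limma adjusted p of 0.602. Without mutant 4 the difference was -0.54, and without mutant 5 it was -0.25.

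Myf5, the earliest of the myogenic factors in the embryo, read 7.03, 6.90, 6.68, 7.0 and 6.49 in the mutants and 7.09, 6.87, 6.85, 7.31 and 6.82 in the controls. The groups overlapped over most of their range, with mutants 3 and 5 below the lowest control. For Myf5 the log2 difference was -0.17 (interval -0.44 to 0.10), with a limma adjusted p of 0.736. Control 4 and mutant 5 held much of it, since the difference was -0.0024 without these arrays, -0.09 without control 4 alone and -0.08 without mutant 5 alone.

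Myf6, or MRF4, a factor of differentiating and mature fibres that lies next to Myf5 in the gene order of GRCm38.p6, read 5.27, 4.96, 5.41, 5.41 and 5.43 in the mutants and 5.04, 5.00, 5.08, 5.60 and 5.22 in the controls. The highest and the second lowest arrays were both controls, and mutant 2 was the lowest. Myf6 had a log2 difference of 0.11 (interval -0.16 to 0.38) and a limma adjusted p of 0.832. The interval holds differences of either sign, as does that of Myf5.

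**Figure D2:**
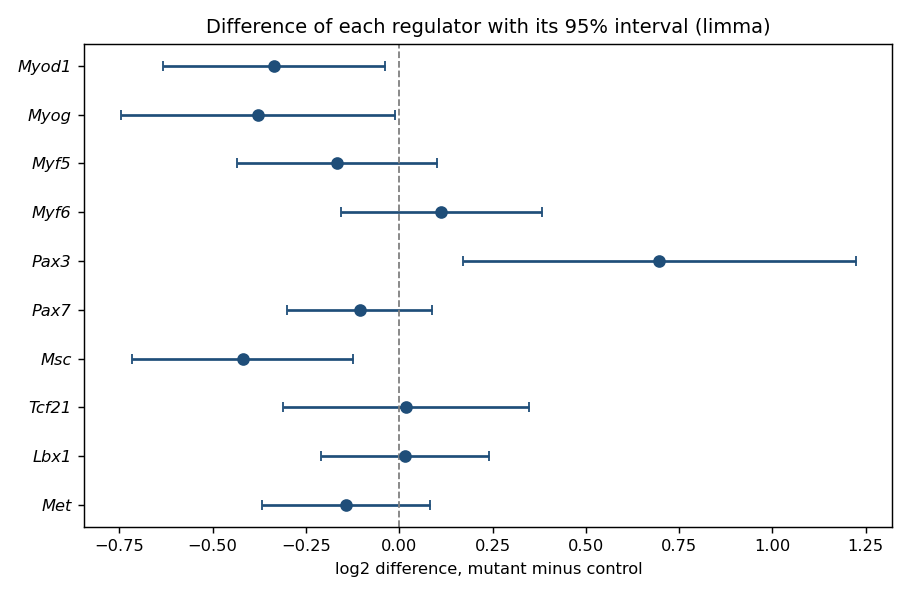
Log2 difference of each regulator, mutant minus control (horizontal axis), with its 95% interval from limma. Pax3 lies at 0.70 and Msc at -0.42, the intervals of Myod1 and Myog end just below 0 (-0.04 and -0.01), and the other 6 intervals include 0.

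Msc, also called MyoR, a repressor that acts with Tcf21 in the precursors of the chewing muscles in mouse, had the largest difference in the lower direction among the 10. It read 7.32, 7.06, 6.64, 7.29 and 6.72 in the mutants and 7.52, 7.63, 7.20, 7.40 and 7.38 in the controls. All 5 mutants lay below the control mean of 7.43, and mutants 2, 3 and 5 lay below the lowest control. As for Myod1, the mutant read lower in 5 of 5 pairs of the same number. On the log2 scale Msc differed by -0.42 (interval -0.72 to -0.12), or 74.8% of the control signal, with an exact permutation p of 0.0397 and a limma adjusted p of 0.569. It was -0.44 within the arrays numbered 1 to 3 and -0.39 within those numbered 4 and 5.

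Tcf21, or capsulin, the partner of Msc in that role, differed little between the groups. It read 6.39, 6.54, 6.30, 6.49 and 6.35 in the mutants, against 6.82, 6.64, 5.93, 6.05 and 6.55 in the controls. The 5 mutants lay inside the spread of the controls, among which controls 3 and 4 were low. Tcf21 differed by 0.02 (interval -0.31 to 0.35), with a limma adjusted p of 0.985, and its sign turned when single arrays were left out, the values running from -0.10 to 0.12.

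Pax3 stood out in the other direction. It read 7.11, 7.89, 7.63, 7.40 and 8.57 in mutants 1 to 5, and 6.57, 7.0, 6.74, 7.50 and 7.30 in controls 1 to 5. All 5 mutants lay above the control mean of 7.02 and mutants 2, 3 and 5 above the highest control. The mutant read higher in 4 of 5 pairs of the same number, the exception being number 4. The log2 difference of Pax3 was 0.70 (interval 0.17 to 1.22), or 162% of the control signal, with an exact permutation p of 0.0476 and a limma adjusted p of 0.572. It was 0.77 within the arrays numbered 1 to 3 and 0.58 within those numbered 4 and 5, and it was 0.48 without mutant 5.

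Pax7, the related paired-box factor that marks muscle progenitors and later satellite cells, had a difference of the opposite sign to that of Pax3. It read 7.48, 7.25, 7.17, 7.46 and 7.57 in the mutants and 7.48, 7.56, 7.42, 7.64 and 7.37 in the controls. Mutant 5, the highest array for Pax3, was also the highest mutant for Pax7 but lay below control 4. The Pax7 difference was -0.11 (interval -0.30 to 0.09), with a limma adjusted p of 0.766.

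Lbx1, a homeobox factor needed by migrating limb muscle precursors and by dorsal interneurons, read 7.01, 6.93, 7.24, 7.29 and 7.49 in the mutants and 7.15, 7.22, 7.05, 7.33 and 7.14 in the controls. The mutants spread on both sides of the controls, with mutant 5 highest and mutant 2 lowest. Its log2 difference was 0.02 (interval -0.21 to 0.24), with a limma adjusted p of 0.980.

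Met, the receptor of hepatocyte growth factor that lets muscle precursors leave the somite, read 7.63, 7.83, 7.55, 7.83 and 7.40 in the mutants, against 7.97, 7.82, 7.52, 7.89 and 7.74 in the controls. Mutant 5 alone lay below the lowest control. The log2 difference of Met was -0.14 (interval -0.37 to 0.08), with a limma adjusted p of 0.731. Hgf, its ligand, had a log2 difference of 0.02 with a standard error of 0.11.

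The question of whether Pax3 changed unlike the myogenic factors was put to the log2 ratio of Pax3 to each factor within an array, which tests unequal change and not level. The change of Pax3 exceeded that of Myod1 by 1.03, that of Myog by 1.07, that of Myf5 by 0.86 and that of Myf6 by 0.58 on the log2 scale. For each of the 4 ratios 3 of the 5 mutants lay above the highest control. The exact two-sided permutation p was 0.0317 for Myod1, 0.0397 for Myog, 0.0556 for Myf5 and 0.0794 for Myf6, and the values adjusted over these 4 comparisons were 0.0741, 0.0741, 0.0741 and 0.0794, so none passed. The 4 ratios share Pax3 and are not independent. The ratio to Myod1 differed by 1.1 within the arrays numbered 1 to 3 and by 0.94 within those numbered 4 and 5. Adjusted p of 0.0317 was reached for all 4 without mutant 1 and for Myod1 and Myog without mutant 4, and without mutant 5 the excess over Myod1 was 0.73. Myf5 and Myf6 without mutant 4 had an adjusted p of 0.0556, and leaving out any of the other 8 arrays gave 0.0741 to 0.183.

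Across the 10 embryos Pax3 was not shown to run against the myogenic factors. Over the 9 relations of Pax3 to the other genes, Pearson's r was -0.72 with Msc (permutation p 0.0176, adjusted 0.158), with a Spearman rho of -0.67 (permutation p 0.0387, adjusted 0.348). With Myod1 the values were r = -0.59 (permutation p 0.0725, adjusted 0.218) and rho = -0.44 (permutation p 0.200, adjusted 0.444). For Myog r was -0.62 (permutation p 0.0564, adjusted 0.218) and for Myf5 -0.53 (permutation p 0.114, adjusted 0.248). Myf6 had the other sign, with r = 0.47 (permutation p 0.177, adjusted 0.248). Mutant 5 and control 1 were the arrays farthest from the median of Pax3. Without both, r was -0.50 with Msc, -0.11 with Myod1 and -0.14 with Myog. Its sign turned with Myf5 (0.07), with Tcf21 (0.29, against -0.13 over all 10 arrays) and with Met (0.41, against -0.45). The value with Myod1 was -0.26 without mutant 5 alone and -0.53 without control 1 alone. None of the 9 passed after adjustment. As deviations from the group means, r was -0.51 with Msc and -0.35 with Myod1, and within the 6 arrays numbered 1 to 3 it was -0.69 with Msc and -0.52 with Myod1. The 4 arrays numbered 4 and 5 are too few for a correlation.

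**Figure D3:**
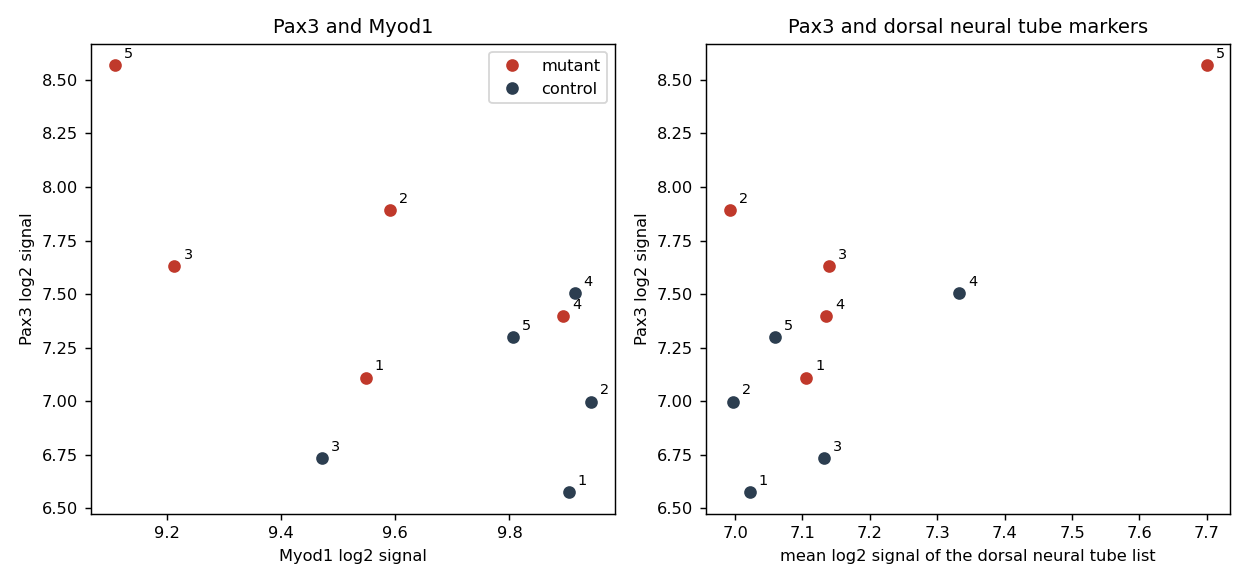
Log2 signal of Pax3 (vertical axes) against the log2 signal of Myod1 (left) and against the mean log2 signal of the dorsal neural tube list (right), with a point per array, numbered by replicate. Mutant 5 lies alone at the high end of Pax3 (8.57) and of the neural list (7.70), and mutant 2, next in Pax3 at 7.89, is the lowest of the 10 arrays on the neural list (6.99).

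Several, but not all, markers of neural tissue were highest on the array with the most Pax3. Of the dorsal neural tube and roof plate list 25 of 28 genes were measured and 17 were higher in the mutants, with a median log2 difference of 0.05 (0.02 to 0.11 without single arrays), and 0 passed the threshold. Its mean signal per array ran over 6.99 to 7.70 in the mutants and 7.0 to 7.33 in the controls, with mutant 5 highest and control 4 next. Pax6, a factor of neural progenitors, had a log2 difference of 0.70 (standard error 0.28, limma adjusted p 0.583), and Sox2, expressed in neural and otic epithelium, had 0.52 (standard error 0.25, adjusted p 0.624). All measured genes of this list read above background on at least 1 array. En2, a midbrain and hindbrain gene chosen here after its values were seen, read 8.81 in mutant 5 and 7.05 in control 4, against 4.17 to 4.74 in the other mutants and 4.68 to 5.12 in the other controls. Pax6 (7.27), Olig3 (8.25), Atoh1 (7.69) and En1 (7.03) were also highest in mutant 5. Wnt1 read 5.91 there and 5.86 in mutant 4, and Zic1 was highest in mutant 4 (10.32, against 9.94 in mutant 5). Without mutant 5 and control 4 the log2 difference of Pax3 was 0.60, and the part of neural tissue in it was not tested.

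Interneuron and neural crest lists also hold cells that can express Pax3 or Lbx1. All 13 measured genes of the hindbrain and spinal interneuron list were higher in the mutants, where 9794 of 19938 genes were. These 13 signs are not separate observations. The median log2 difference of the list was 0.17, and 0 passed. That median was 0.02 without mutant 5, 0.11 without control 1 and 0.30 without mutant 2. The mean of the list was 7.53 in mutant 5, 6.50 to 6.77 in the other mutants and 6.35 to 6.86 in the controls. Pou4f1, a sensory neuron factor, had 0.44 (adjusted p 0.583) and Slc17a6, a glutamate transporter of neurons, 0.55 (adjusted p 0.624). The neural crest and Schwann precursor list had a median of -0.09, with 5 of 14 genes higher, and a mean of 8.16 to 8.27 in the mutants and 8.05 to 8.19 in the controls. Without mutant 5 its median was 0.00093. In it Ednrb, the endothelin receptor of neural crest cells, had 0.38 (limma adjusted p 0.569), and Tfap2a, an early crest factor, 0.38 (adjusted p 0.575). The 9 genes that were lower included Sox10 (-0.13), Foxd3 (-0.09) and Snai1 (-0.24).

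The genes whose pattern over the 10 arrays was most like that of Pax3, among 15641 genes above background on all arrays, were Fbxl16 (Pearson r 0.95), Plekhb2 (0.94), Tfap2b (0.93), Mtus2 (0.92) and Ttc9 (0.92). Tfap2b, an AP-2 factor of neural crest and of dorsal neurons, had a log2 difference of 0.60 and an adjusted p of 0.575, and read highest in mutant 5 at 9.16. With 10 arrays, 335 genes reached an r of 0.8 or more with Pax3, so these likenesses are given as a description with no p.

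Myod1, Myog, Myf5, Msc and Met varied together from embryo to embryo. Over the 10 arrays the 10 correlations among these 5 genes ran from 0.70 to 0.95, and as deviations from the group means from 0.64 to 0.93. The set of 5 was picked after its values were seen. All 45 pairs of the 10 genes were computed, 8 of them passed after adjustment over the 45 by Pearson's r, all within this set, and 5 passed as deviations, while 1 passed by Spearman's rho. For Myod1 and Myog r was 0.95 (permutation p 6e-05, adjusted 0.0027) and rho was 0.85 (permutation p 0.00295, adjusted 0.0523). Without mutants 3 and 5 their r was 0.85, and within the 6 arrays numbered 1 to 3 it was 0.96. For Myod1 and Msc r was 0.92 (permutation p 0.00055, adjusted 0.00825) and rho was 0.89 (permutation p 0.00102, adjusted 0.0459), with r = 0.73 without mutants 3 and 5. Myod1 and Met had r = 0.90 (permutation p 0.00049, adjusted 0.00825) and rho = 0.83 (permutation p 0.00447, adjusted 0.0523), with r = 0.81 without the same arrays. Myod1 and Myf5, at r = 0.77 (permutation p 0.00718, adjusted 0.0404) and rho = 0.67 (permutation p 0.0392, adjusted 0.178), fell to 0.39 without them.

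Myf6 was not part of this set, although it adjoins Myf5. It had the lowest signal of the 10 (4.96 to 5.60, with background up to 4.36). Whether this low signal weakened its correlations was not tested. Its r was -0.21 with Myod1 (permutation p adjusted over the 45 pairs 0.722) and 0.07 with Myf5 (adjusted 0.869). The gene of the 10 closest to it was Lbx1, with r = 0.69 (adjusted 0.102) and rho = 0.76, which did not pass.

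**Figure D4:**
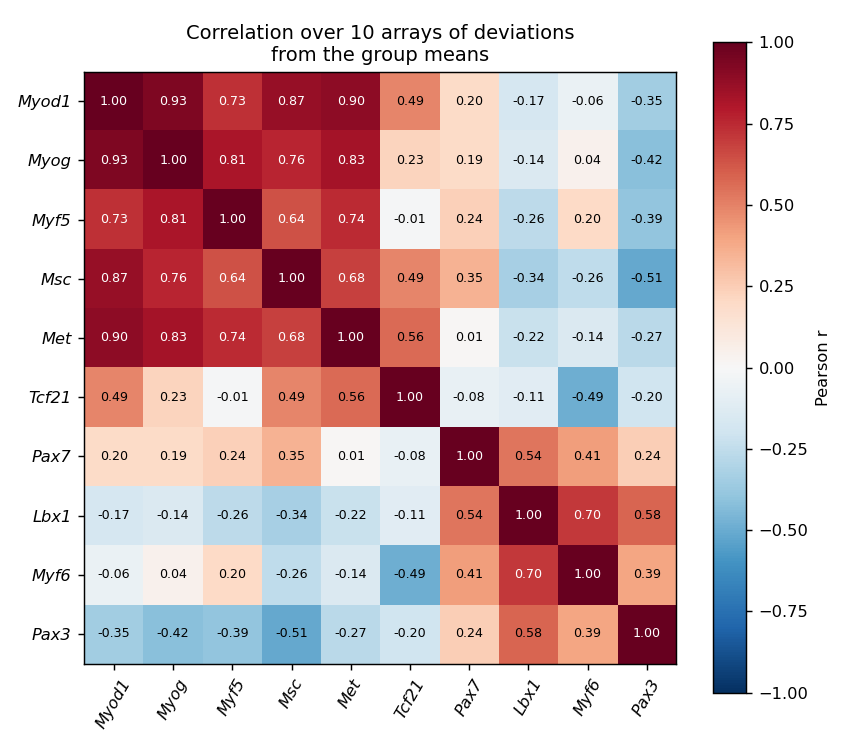
Pearson correlation, over 10 arrays, of each pair of regulators after subtracting the mean of the array's group, on a colour scale of -1 to 1. Myod1, Myog, Myf5, Msc and Met form a block of 0.64 to 0.93, and Pax3 has negative values with all 5, the lowest -0.51 with Msc.

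All 35 measured genes of the skeletal muscle differentiation list were lower in the mutants, where 10144 of 19938 genes were, and the median log2 difference was -0.19. Without control 4 that median was -0.09, and without mutant 4 it was -0.31. None of the 35 passed the threshold, and 2 had an unadjusted p under 0.05: Tnnt1, slow skeletal troponin T, at -0.39 (standard error 0.16, limma adjusted p 0.589), and Ckm, muscle creatine kinase, at -0.23 (standard error 0.10, adjusted p 0.602). Genes of 1 tissue can vary together with its amount, so 35 signs are not 35 separate observations. The mean of the list was 7.92, 7.98, 7.87, 8.51 and 7.73 in mutants 1 to 5, and 8.28, 8.17, 7.79, 8.61 and 8.12 in controls 1 to 5. Control 3 lay below 4 of the mutants, and mutant 4 lay above 4 of the controls. In whole tissue such as this, fewer muscle cells and less RNA per muscle cell cannot be told apart.

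**Figure D5:**
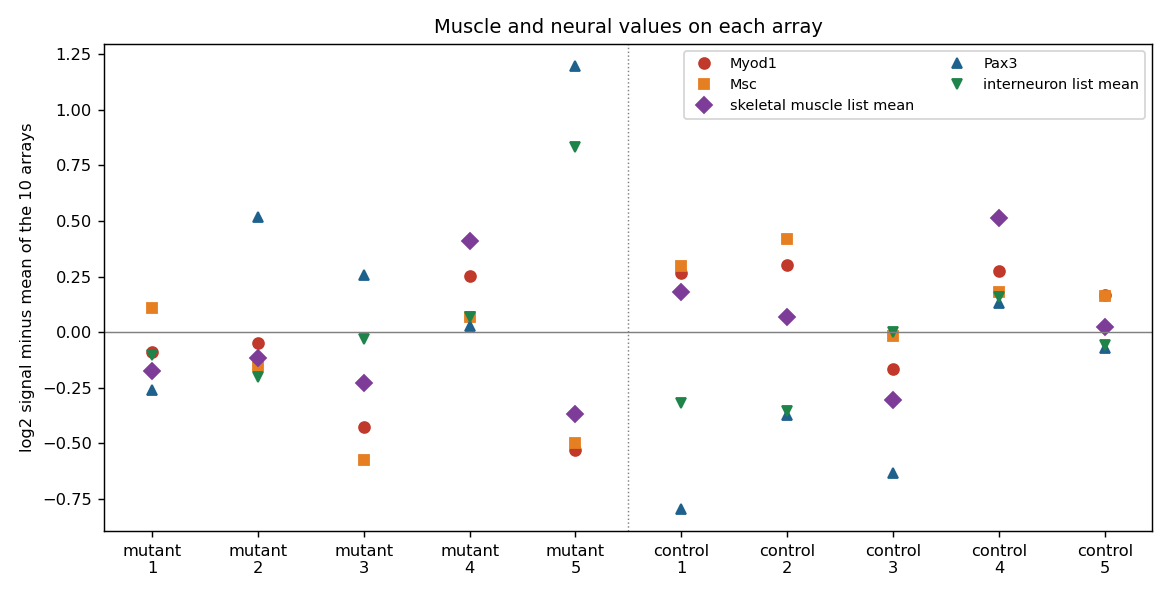
Log2 signal of Myod1, Msc and Pax3 and mean log2 signal of the skeletal muscle and interneuron lists on each array (vertical axis, each minus its mean over the 10 arrays), mutants left of the dotted line and controls right. Mutant 5 has the highest Pax3 and interneuron values with low Myod1, Msc and muscle values, and arrays 4 of both groups have the highest muscle list means (8.51 and 8.61).

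The genes most like Myog included further muscle genes. Actc1, the actin of embryonic striated muscle, had a Pearson r of 0.97 with Myog over the 10 arrays, and Mymk, myomaker, which drives myoblast fusion, had 0.97, beside Trpm5 (0.97), Sytl2 (0.96) and Ets2 (0.96). For Mymk the log2 difference was -0.29 with an adjusted p of 0.626. The genes most like Myod1 were Col15a1 (0.97), a basement membrane collagen, Plp2 (0.96), Hic1 (0.95), a factor of mesenchymal progenitors, Gpx7 (0.95) and Igdcc4 (0.95). At an r of 0.8 or more stood 307 genes for Myog and 355 for Myod1.

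Genes upstream of the myogenic factors were mixed. Of the 36 measured genes of that list 13 were higher and 23 lower in the mutants, with a median log2 difference of -0.03 (-0.07 to 0.04 without single arrays, above 0 without mutant 5) and 0 past the threshold. Mdfi, also called I-mfa, which inhibits myogenic factors, had the smallest p of the 36. It read 8.97 in mutants and 9.24 in controls, a difference of -0.27 (standard error 0.07, limma adjusted p 0.569). Its groups did not overlap, as held for 1.83% of all genes. Dmrt2, which acts upstream of Myf5 in the mouse somite, had -0.25 (standard error 0.08, adjusted p 0.569). The E protein Tcf3, a dimer partner of the myogenic factors named after its values were seen, had -0.21, with a standard error of 0.11.

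Genes of Met signalling and of myoblast migration showed little. Of 17 measured, 6 were higher and 11 lower, the median log2 difference was -0.01 and 0 passed. Hpn, hepsin, a protease that can activate hepatocyte growth factor, had -0.21 (limma adjusted p 0.589), and Sos1, a signal relay below receptor tyrosine kinases, had 0.11 (adjusted p 0.675).

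Markers of the tissues the label names read above background, and more of them read lower than higher in the mutants. Signs of genes of 1 tissue are not separate observations. In the otic vesicle list 9 of 14 genes were lower, where 10144 of 19938 genes were. Its median log2 difference was -0.05 (-0.10 to -0.03 without single arrays). The mean signal of the otic list per array was 7.70 to 7.81 in the mutants and 7.74 to 7.92 in the controls. In it Dlx5 had -0.44 (limma adjusted p 0.589) and Dlx6 -0.45 (adjusted p 0.602), both factors of the dorsal otic vesicle and of the jaw mesenchyme. The periotic mesenchyme list had a median of -0.14, with 13 of 15 genes lower, and a mean of 9.50 to 9.97 in the mutants and 9.79 to 10.06 in the controls. That median was -0.07 without mutant 5 and -0.09 without control 2. Col2a1, cartilage collagen, had -0.53 (adjusted p 0.569), and Sox9, the chondrogenic factor, -0.14 (adjusted p 0.685). None of the genes of these 2 lists passed, and the part of a changed tissue makeup in the muscle values was not tested.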

How the data were processed

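The 10 embryos were hybridised to Affymetrix Mouse Gene ST 1.0 arrays. Per the submitters' processing notes, the authors made the values with RMA in Affymetrix Expression Console 1.1, and the values they deposited are log2 signals, as read from their array medians of 6.19 to 6.27. The probe file version is not stated in the labels. Arrays have no read depth, and their number limits the precision. Of 35557 probe sets, the platform annotation gave 21789 with 1 gene symbol, 1621 with several and left 12147 unnamed. RefSeq names were found by gene id for 21698, in the table of GRCm38.p6, and each gene was read from its probe set of highest mean.

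Groups were compared two-sided with limma (version 3.58.1, R version 4.3.3, eBayes with trend, Benjamini-Hochberg over 21789 probe sets), and single values also by permuting the arrays exactly and two-sided, which can give no p under 0.00794. The fit was checked on simulated data. Correlations between pairs of the 10 regulators were given permutation p-values from 100000 draws. No set test was run on the lists, and their means per array entered only Dixon's test for an outlying array. Exact p-values of the 10 regulators are unadjusted. The p-values measure the spread between embryos, which the labels call biological replicates. The members and the lists were chosen with earlier results of these data known.

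Genes named are Tbx1, the 10 regulators, the 2 genes of smallest p above background on at least 5 arrays in each list, and the 5 genes most like Myod1, Myog and Pax3. Hgf, En1, En2, Tcf3, Olig3, Atoh1, Wnt1, Zic1, Sox10, Foxd3 and Snai1 were added with their values in view. The sex of the embryos followed from Xist and 3 Y-linked genes (1 male and 4 female mutants, 2 male and 3 female controls). Over the probe sets tested, mutants and controls of 1 number had deviations from their group means that correlated at 0.122 to 0.247 (other numbers -0.392 to 0.382), and over all probe sets the same-number values were -0.131 to 0.173. The fit and the permutations left the arrays unpaired, and the numbers entered as pairs in an alternative, the replicate block. Alternatives were other moderation, scaling, filters and probe sets, array weights, sex, the replicate block and subsets of arrays. List genes without a probe set of their own symbol were not analysed here.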

Additional observations from a re-analysis of the deposited data

Results flagged for a closer look

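In 7 of 100 groups of 5 values, 1 array lay far from the other 4 by Dixon's test, where chance gives about 5. The genes added with their values in view were not put to this test. Among them were En2 (8.81 in mutant 5 and 7.05 in control 4) and Olig3 (8.25 in mutant 5), so the count leaves out these high values. None of the 10 regulators was among them. Mutant 5 was high in the mean of the dorsal neural tube list (7.70), in the mean of the interneuron list (7.532) and in Tfap2b (9.163), and low in the mean of the upstream regulators of myogenesis (8.761). Mutant 2 was high in the mean of the Met signalling list (8.573). Control 2 was low in Slc17a6 (6.846) and control 3 low in Gpx7 (7.719). These are log2 signals.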

How the results depend on the processing

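In 23 alternatives the regulators past the threshold stayed at 0, and Myod1, Myog, Myf5, Msc and Met stayed lower and Pax3 and Myf6 higher in the mutants. The limma adjusted p ranged from 0.336 to 0.900 for both Pax3 and Msc, where 0.336 was that with the replicate block, and the block changed no call. Leaving out 1 array gave log2 differences of 0.48 to 0.85 for Pax3 and -0.50 to -0.33 for Msc. The sign of Tcf21 turned without single arrays (-0.10 to 0.12), in the arrays numbered 1 to 3 (-0.052) and without mutant 5 and control 4 (-0.055), an alternative chosen after seeing the data. That of Lbx1 turned with sex in the fit (-0.0088), with array weights (-0.049), without single arrays (-0.058 to 0.082), in the arrays numbered 1 to 3 (-0.081) and without mutant 5 and control 4 (-0.021). That of Pax7 turned in the arrays numbered 4 and 5 (0.011). The cause was not tested.

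Leaving out 1 array, the excess of Pax3 ranged from 0.73 to 1.22 over Myod1, from 0.74 to 1.31 over Myog, from 0.57 to 1.07 over Myf5 and from 0.41 to 0.73 over Myf6. With the replicate numbers as pairs its adjusted p was 0.125 for each, the sign flips of 5 pairs allowing no unadjusted p under 0.0625. The correlation of Pax3 and Pax7 (-0.07) turned to 0.24 as deviations from the group means and ranged over -0.46 to 0.087 without single arrays, and that of Pax3 and Tcf21 ranged over -0.52 to 0.18. All genes past the threshold numbered 2, and 1 with only probe sets above background on at least 5 arrays, 1 with only the arrays numbered 1 to 3, and 0 with only those numbered 4 and 5, fits of fewer arrays. Few arrays limit the precision: the 95% interval of Pax3 spans 0.17 to 1.22.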
